A study of Homo sapiens with 35 samples.

Results

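The genes for the proteins of the mitochondrial ribosome are described here in SUM149, a human inflammatory breast cancer cell line without hormone receptors. Members were all protein-coding genes whose symbol is MRPL or MRPS followed by a number and an optional letter A, B or C, pseudogenes left out. RefSeq lists 77 such symbols, of which 74 were measured among 22336 genes: 50 encode proteins of the large subunit and 24 proteins of the small subunit. The probe sets of the other 3 are shared with a neighbouring gene (MRPL30 with C2orf15, MRPS16 with DNAJC9 and MRPS6 with SLC5A3), and they were not analysed here. RNA was hybridised to Affymetrix human transcriptome arrays, 35 in all, 18 with RNA from polysomes and 17 with total RNA. The 6 treatments were DMSO, the solvent control; IR, not defined in the labels and read here as ionizing radiation; PP242, which blocks the catalytic site of the kinase mTOR and so both mTOR complexes; RAD001 (everolimus), a rapamycin analog that acts mainly on mTOR complex 1; PP242 + IR; and RAD001 + IR. Each treatment had 3 arrays per RNA fraction, except PP242 + IR in total RNA, which had 2. The labels give no dose and no time, and all groups are the same cell line. Nothing says that the replicates, called biological, came from separate cultures. The p-values measure the spread between arrays within groups, pooled over all 12 groups. The pooled spread of a gene serves every group, also one whose own arrays spread more, where p can be too small. MRPL58, for example, had an SD of 0.57 in PP242 total RNA and of 0.15 in DMSO total RNA. How much of that spread lies between separate cultures is not known.

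Mitochondria keep their own ribosome, which makes the few respiratory chain subunits encoded by mitochondrial DNA. Its RNAs come from that DNA, but every one of its proteins is encoded in the nucleus, made on cytosolic ribosomes and imported. Part of the proteins have a counterpart in the bacterial ribosome and part were added in the mitochondrial lineage; of the measured genes, 29 and 14 in the large and small subunit are of the first kind, and 21 and 10 of the second. The mTOR complex 1 pathway is known to promote translation of many nuclear messages for mitochondrial proteins, and, more strongly, of messages for cytosolic ribosomal proteins, which begin with a C followed by a run of pyrimidines (a 5′ terminal oligopyrimidine tract). RNA on polysomes is RNA under translation, so its change beside that of total RNA is a measure of the change in translation.

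The message starts are shown first, because the tract at the start is the feature that sets cytosolic ribosomal protein messages apart. RefSeq promoters (GRCh38.p14) were held for 66 of the 74 genes and for 43 of 48 measured cytosolic ribosomal protein genes. At the annotated start, a C followed by 4 pyrimidines stood in 5 of the 66 genes (7.6%), MRPL44, MRPL45, MRPL53, MRPS27 and MRPS33, in 32 of the 43 cytosolic genes (74.4%) and in 4.6% of 15842 protein-coding promoters. These are annotated starts, not starts measured in these cells. The 45 bases from 30 before to 15 after the start are given for genes that the results turn on, for 3 with the tract and for 2 cytosolic genes; the first 5 transcribed bases are in capitals.
MRPL4: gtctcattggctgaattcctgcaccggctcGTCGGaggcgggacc
MRPL58: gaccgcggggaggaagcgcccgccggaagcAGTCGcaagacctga
MRPL37: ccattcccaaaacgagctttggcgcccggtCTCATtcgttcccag
MRPL43: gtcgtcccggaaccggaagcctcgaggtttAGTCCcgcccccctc
MRPS11: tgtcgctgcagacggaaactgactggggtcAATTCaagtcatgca
MRPL42: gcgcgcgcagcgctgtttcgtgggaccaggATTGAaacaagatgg
MRPL44: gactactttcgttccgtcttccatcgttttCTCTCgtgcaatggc
MRPL45: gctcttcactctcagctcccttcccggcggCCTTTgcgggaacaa
MRPS27: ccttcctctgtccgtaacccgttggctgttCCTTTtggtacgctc
RPS19: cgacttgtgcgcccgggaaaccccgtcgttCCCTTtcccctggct
RPS21: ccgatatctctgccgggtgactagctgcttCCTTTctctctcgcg

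Each window holds the end of the promoter and the start of the first exon. On the plus strand they lie at chr19:10251921-10251965 (MRPL4), chr17:75012640-75012684 (MRPL58), chr1:54200137-54200181 (MRPL37), chr15:88467678-88467722 (MRPS11), chr12:93467484-93467528 (MRPL42), chr2:223957433-223957477 (MRPL44), chr17:38297138-38297182 (MRPL45), chr19:41860225-41860269 (RPS19) and chr20:62387073-62387117 (RPS21). On the minus strand they lie at chr10:100987483-100987527 (MRPL43) and chr5:72320226-72320270 (MRPS27). RPS19 and RPS21 begin with a C and an unbroken run of pyrimidines, as do MRPL44, MRPL45 and MRPS27. MRPL4, MRPL58, MRPL43, MRPS11 and MRPL42 begin with A or G, and in MRPL37 the run of pyrimidines ends at an A among the capitals.

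The deposited values are on a log2 scale, so a difference of 1 is a doubling; the scale was inferred from the values. Array medians over all probe sets were 4.19 to 4.38 in polysome RNA and 4.33 to 4.84 in total RNA. The highest were those of replicate 2 of PP242 (4.84), RAD001 (4.68) and DMSO (4.56) in total RNA. In 8 arrays, replicate 3 of every inhibitor group except PP242 + IR in total RNA, where it was replicate 2, DNA replication genes were low and sterol synthesis genes high. The median over 20 DNA replication genes was 8.39 to 9.06 in the polysome RNA of these arrays against 10.47 to 11.24 in the others, and 7.98 to 8.64 against 9.26 to 10.81 in total RNA. The median over the mitochondrial ribosomal protein genes was 8.67 to 8.86 against 8.75 to 9.07 in polysome RNA and 8.22 to 8.38 against 7.84 to 8.74 in total RNA, so there the arrays overlapped. Keratins and other basal and epithelial markers were high (8 of 10 measured, mean levels from 6.69 for KRT14 to 15.88 for KRT5). The receptors PGR and ESR1 were at 3.51 and 4.33, and fibroblast (7 of 8), leukocyte (7 of 8) and endothelial (7 of 7) markers at 3.57 to 5.24, near the array medians.

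Nearly all of the family was well above the array median, and its level was higher in polysome than in total RNA. The median of the 74 genes over all arrays was 8.69, against 5.16 for all genes; 1 gene, MRPL34, lay below the latter. The extremes of mean level were MRPL34 (4.82), MRPL23 (5.25) and MRPL43 (5.63) at the low end and MRPS10 (12.88), MRPL3 (12.99) and MRPS35 (14.07) at the high end; these are each probe set's own levels and set no order of abundance between genes. Over the 35 arrays MRPL4 (SD 0.82) and MRPS34 (0.75) varied most, and MRPS22 (0.11) and MRPL23 (0.20) least. In polysome RNA the median on the 3 DMSO arrays was 8.96 to 9.07 (mean 9.01), and in total RNA 8.27 to 8.74 (mean 8.55). IR had 8.88 to 9.04 in polysome and 8.55 to 8.69 in total RNA, which overlapped DMSO in both fractions. PP242 had 8.67 to 8.81 in polysome RNA and RAD001 8.77 to 8.90, every array below the DMSO arrays. In total RNA PP242 had 7.84 to 8.37 and RAD001 8.16 to 8.48, which overlapped DMSO through its replicate 2 (8.27); the other DMSO arrays were at 8.63 and 8.74. The combinations lay between, with means of 8.85 (PP242 + IR) and 8.90 (RAD001 + IR) in polysome RNA and 8.44 and 8.48 in total RNA. The group mean was lowest in PP242 total RNA for 40 of the 74 genes, lowest in RAD001 total RNA for 12, and highest in DMSO polysome RNA for 28. In total RNA the array with the highest array median in each of the DMSO, PP242 and RAD001 groups also had the lowest family median of its group (8.27, 7.84 and 8.16); the part of the array medians in the results was not tested. In such bulk RNA, fewer cells with a message and less message per cell cannot be told apart.

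**Figure D1:**
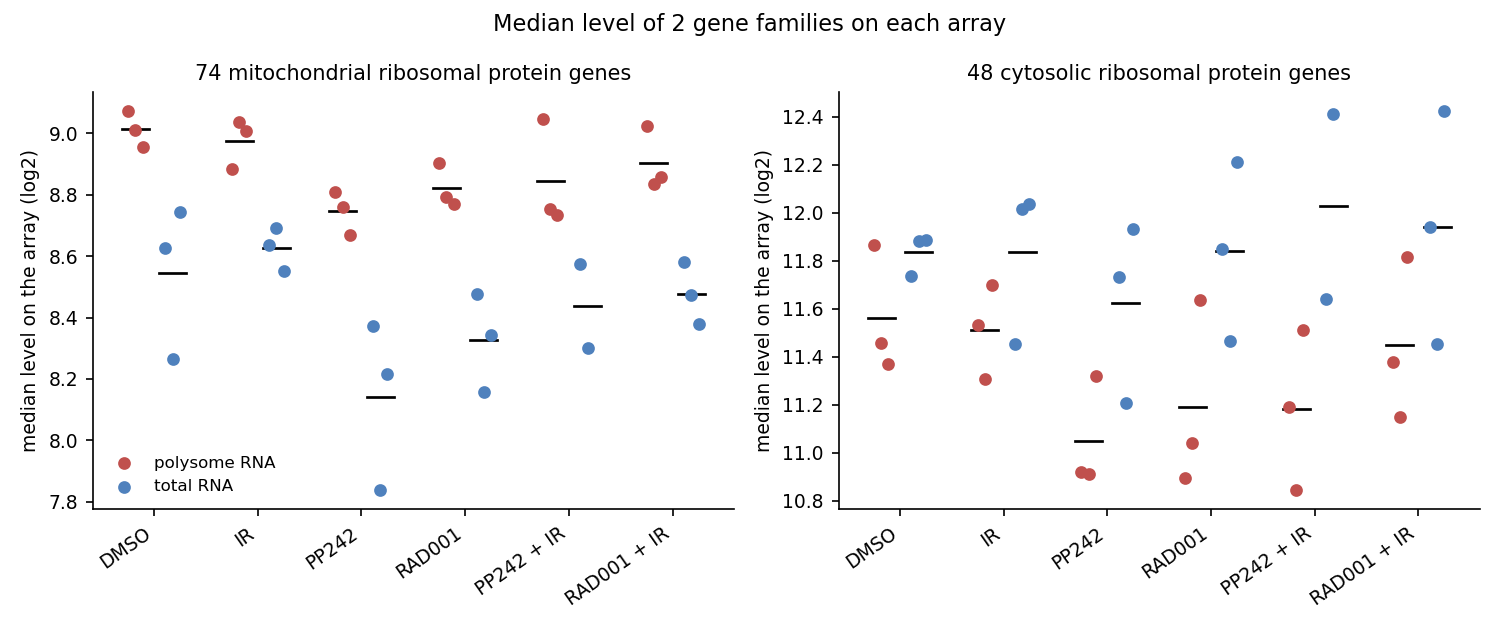
Median log2 level of the 74 mitochondrial (left) and 48 cytosolic (right) ribosomal protein genes on each array, polysome RNA in red and total RNA in blue, with black bars for group means (n = 3; n = 2 for PP242 + IR in total RNA). For the mitochondrial family the polysome means (8.75 to 9.01) lie above the total means (8.14 to 8.63) in every treatment; for the cytosolic family the polysome means lie below the total means.

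With PP242, 2 of the 74 genes fell in polysome RNA, MRPL37 and MRPL43, and 2 in total RNA, MRPS11 and MRPL58, and none rose (limma, adjusted p under 0.05 over all genes). Most of the family lay below DMSO: 69 of 74 in polysome RNA, with a median change of -0.32, and 70 of 74 in total RNA, with a median of -0.46. Over all genes 47.2% and 46.8% lay below 0, and over the 11687 genes with a mean level of at least 5, which hold 73 of the 74, 62.3% and 62.8% did. The genes called lower were 0.215% of all genes in polysome RNA and 0.107% in total RNA. In polysome RNA, 38 members had every PP242 array below every DMSO array, against 12.2% of all genes; in total RNA 19 did, against 4.87%. With only the arrays compared in the fit none of the 4 passed (limma adjusted p of 0.116 for MRPL37, 0.15 for MRPL43 and 1 for MRPS11 and MRPL58). With array weights 13 members fell in polysome RNA, when 4.82% of all genes were called, and 6 in total RNA, when 0.815% were. The PP242, RAD001 and combination comparisons below all use the same DMSO arrays.

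MRPL37, a large subunit protein with no bacterial counterpart, had levels of 12.85, 12.84 and 12.61 on the DMSO polysome arrays and 11.94, 11.47 and 11.91 with PP242. The groups did not overlap, and the change was -0.99 ± 0.19 (SE, limma adjusted p = 0.0193). In total RNA MRPL37 was at 11.98, 11.78 and 12.07 in DMSO and at 11.73, 11.81 and 11.68 with PP242, which overlapped (-0.20, adjusted p = 0.778). The polysome call was lost when DMSO replicate 1 (adjusted p = 0.118), DMSO replicate 2 (0.101) or PP242 replicate 2 (0.177) was left out, with changes of -0.95, -0.95 and -0.84. MRPL43, another protein of the large subunit without a bacterial counterpart, was at 5.99, 6.06 and 5.87 in DMSO polysome RNA and at 5.40, 5.29 and 5.64 with PP242. These groups too were apart (-0.53 ± 0.10, limma adjusted p = 0.0193). The MRPL43 call was lost without DMSO replicate 1 (adjusted p = 0.112) or 2 (0.127) or PP242 replicate 1 (0.0899) or 2 (0.177), with changes of -0.46 to -0.52 on the log2 scale. In total RNA MRPL43 changed by -0.29 (limma adjusted p = 0.338).

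MRPS11, a small subunit protein with a bacterial counterpart, was at 8.77, 8.90 and 8.97 in DMSO total RNA and at 8.14, 7.49 and 7.81 with PP242. No PP242 array reached a DMSO array, and the change was -1.07 ± 0.17 (limma adjusted p = 0.00363). In polysome RNA MRPS11 was at 9.32, 9.33 and 8.96 against 8.79, 8.60 and 8.79, also apart, but the change of -0.48 did not pass (adjusted p = 0.317). The call in total RNA was lost without DMSO replicate 3 (adjusted p = 0.0687, change -1.02). Without the 3 total arrays of highest median the MRPS11 change was -0.90 (adjusted p = 0.0509), and without the 8 arrays named above -1.06 (0.0659). MRPL46, a large subunit gene that lies head to head with MRPS11 on chromosome 15, their annotated starts 320 bases apart, changed by -0.61 ± 0.22 in total RNA (limma adjusted p = 0.342) and by -0.71 ± 0.22 in polysome RNA (0.237).

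MRPL58, a peptidyl-tRNA hydrolase built into the large subunit that releases stalled chains, was at 11.94, 11.81 and 12.11 in DMSO total RNA and at 11.52, 10.39 and 10.90 with PP242. The groups were apart, and the change was -1.02 ± 0.21 (limma adjusted p = 0.0426). In polysome RNA MRPL58 was at 12.69, 12.65 and 12.80 in DMSO and at 12.25, 12.08 and 12.56 with PP242 (-0.42, adjusted p = 0.614). The call was lost without DMSO total replicate 1 (adjusted p = 0.131) or 3 (0.337) and without PP242 total replicate 2 (0.182) or 3 (0.125), with changes from -1.02 to -0.74. It was also lost without the 3 total arrays of highest median (0.115) and without the 8 arrays (0.162). Left out singly, PP242 total replicate 2 moved the family's median in total RNA to -0.28 and the count of genes that fell to 1.

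**Figure D2:**
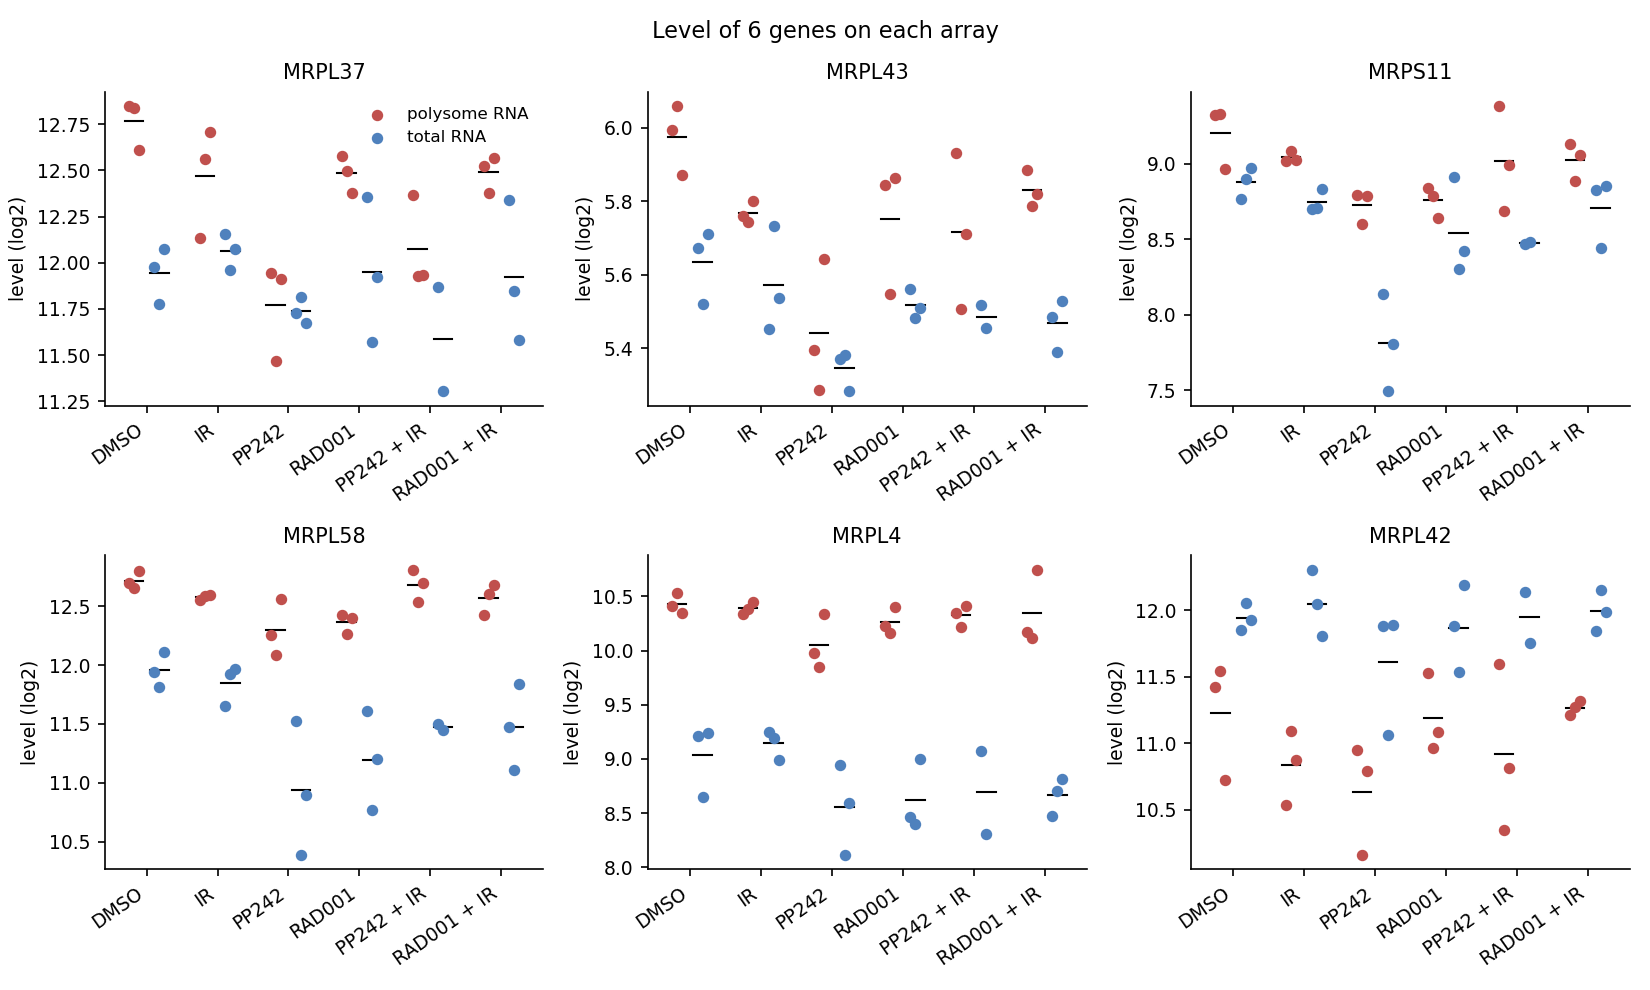
Log2 level of MRPL37, MRPL43, MRPS11, MRPL58, MRPL4 and MRPL42 on each array, polysome RNA in red and total RNA in blue, with black bars for group means. The PP242 polysome arrays of MRPL37 (11.47 to 11.94) lie below the DMSO polysome arrays (12.61 to 12.85), the polysome arrays of MRPL4 above all its total arrays, and those of MRPL42 mostly below its total arrays.

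By subunit, the PP242 change in polysome RNA had a median of -0.35 over the 50 large subunit genes (46 below 0) and of -0.17 over the 24 small subunit genes (23 below 0). In total RNA the medians were -0.49 (48 below 0) and -0.40 (22 below 0). Genes of the large subunit with a bacterial counterpart had a polysome median of -0.34 and those without one -0.42; in the small subunit the medians were -0.29 and -0.14. These differences between groups of genes were not tested. The cytosolic ribosomal protein genes, with the tract at the start of most, had a PP242 median of -0.53 in polysome RNA (47 of 48 below 0). Of them 3 fell there, against 0.215% of all genes. In total RNA their median was -0.31 (44 below 0), and none was called lower, against 0.107% of all genes. The mitochondrial family thus had the median further from 0 in total RNA and the cytosolic family in polysome RNA; without PP242 total replicate 2 the former stood at -0.28 in total RNA, and its order was turned. The mitochondrial genes with the tract had PP242 polysome changes of -0.53 ± 0.23 for MRPL44 (limma adjusted p = 0.502), -0.34 for MRPL45 (0.893), -0.31 for MRPL53 (0.871), -0.30 for MRPS27 (0.833) and -0.01 for MRPS33 (0.993), and none of the 5 passed.

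With RAD001 most of the family again lay below DMSO, and no member passed. In polysome RNA the median change was -0.23 (71 of 74 below 0), with 0 members called and 0% of all genes called (limma); at an unadjusted p under 0.05, 9 members were lower, against 1.59% of all genes. In total RNA the median was -0.29 (69 below 0), again with 0 members and 0% of all genes called; 24 members were lower at an unadjusted p under 0.05, against 4.96% of all genes. In both fractions 46.6% and 54.2% of all genes lay below 0, and 59.8% and 59.3% of those with a mean level of at least 5. Every RAD001 array lay below every DMSO array for 27 members in polysome RNA, against 6.04% of all genes, and for 19 in total RNA, against 4.98%.

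MRPL12, the stalk protein of the large subunit, which is also known to bind the mitochondrial RNA polymerase, had the lowest p of the family in RAD001 total RNA. It was at 11.23, 10.88 and 11.67 in DMSO and at 10.18, 9.71 and 10.14 with RAD001, with no overlap, but the change of -1.25 ± 0.31 did not pass (limma adjusted p = 0.287). MRPL58 was at 11.61, 10.77 and 11.20 in RAD001 total RNA, all below DMSO (-0.76 ± 0.21, adjusted p = 0.399). MRPS22, a small subunit protein without a bacterial counterpart, changed by -0.28 ± 0.08 (adjusted p = 0.399). In polysome RNA the members with the lowest p were MRPL54 (-0.62 ± 0.21), MRPL27 (-0.48 ± 0.17) and MRPS11 (-0.45 ± 0.17), each with a limma adjusted p of 1. MRPL37, which fell with PP242 in polysome RNA, changed there by -0.28 with RAD001 (adjusted p = 1), at 12.58, 12.49 and 12.38.

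With IR alone no member passed in either fraction. In polysome RNA 57 of 74 members lay below DMSO (median -0.13), with 0 called among members and 0% of all genes, and 0 members at an unadjusted p under 0.05 (limma; 0.367% of all genes lower and 0.439% higher). Every IR array lay below every DMSO array for 10 members, against 4.19% of all genes. The members with the lowest p were MRPL43 (-0.21 ± 0.10), MRPS21 (-0.63 ± 0.34) and MRPL37 (-0.30 ± 0.19), each with a limma adjusted p of 1. In total RNA 36 members lay below DMSO and the median was 0.01, or -0.04 after quantile normalization; 0 members and 0% of all genes were called, and 0 members had an unadjusted p under 0.05 (0.488% of all genes lower, 0.278% higher). The side on which the family lay in total RNA turned with single arrays: 57 members were below 0 without DMSO replicate 2 (median -0.084) and 16 without DMSO replicate 3 (0.099). No member had every IR array below DMSO there (2.69% of all genes), and 2 had every array above (1.42%). MRPL37 was at 12.13, 12.56 and 12.70 in IR polysome RNA and at 12.16, 11.96 and 12.07 in IR total RNA, which overlapped DMSO in total RNA and in polysome RNA.

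With the inhibitors and IR together the family's medians were nearer to 0 than with the inhibitors alone, and no member passed. PP242 + IR had a median of -0.15 in polysome RNA (58 of 74 below 0; 0 members and 0.094% of all genes called) and of -0.22 in total RNA (60 below 0; 0 members and 0.0269% of all genes called). At an unadjusted p under 0.05, 7 members were lower in polysome RNA (3.63% of all genes) and 7 in total RNA (2.06%; limma). RAD001 + IR had medians of -0.13 (62 below 0; 0 members and 0% of all genes called) and -0.16 (62 below 0; 0 members and 0.00895% of all genes called), with 1 member (1.37% of all genes) and 9 members (2.91%) lower at an unadjusted p under 0.05. Every array lay below DMSO for 10 members in PP242 + IR polysome RNA (7.49% of all genes), 14 in its total RNA (9.23%), 6 in RAD001 + IR polysome RNA (5.6%) and 8 in its total RNA (5.55%). Without PP242 + IR total replicate 2 its median in total RNA was -0.082, and without total replicate 1 it was -0.38. Without polysome replicate 2 the PP242 + IR median in polysome RNA was -0.023. With array weights 8 members fell with RAD001 + IR in total RNA, when 4.47% of all genes were called. The difference between an inhibitor alone and with IR was not tested. MRPL37 was at 12.36, 11.93 and 11.93 in PP242 + IR polysome RNA, every array below DMSO, but the change of -0.69 ± 0.19 did not pass (limma adjusted p = 0.263). MRPL27, which has a bacterial counterpart in the large subunit, was among the 3 lowest p in the total RNA of both combinations (-0.57 ± 0.19 with PP242 + IR, adjusted p = 0.653; -0.46 ± 0.17 with RAD001 + IR, 0.693). The others were MRPL14 (-0.90 ± 0.34, 0.788) and MRPS26 (-0.33 ± 0.13, 0.804) with PP242 + IR, and MRPL36 (-0.46 ± 0.17, 0.688) and MRPL24 (-0.63 ± 0.24, 0.702) with RAD001 + IR. In RAD001 + IR polysome RNA the lowest p was that of MRPL46 (-0.59 ± 0.22, limma adjusted p = 1).

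**Figure D3:**
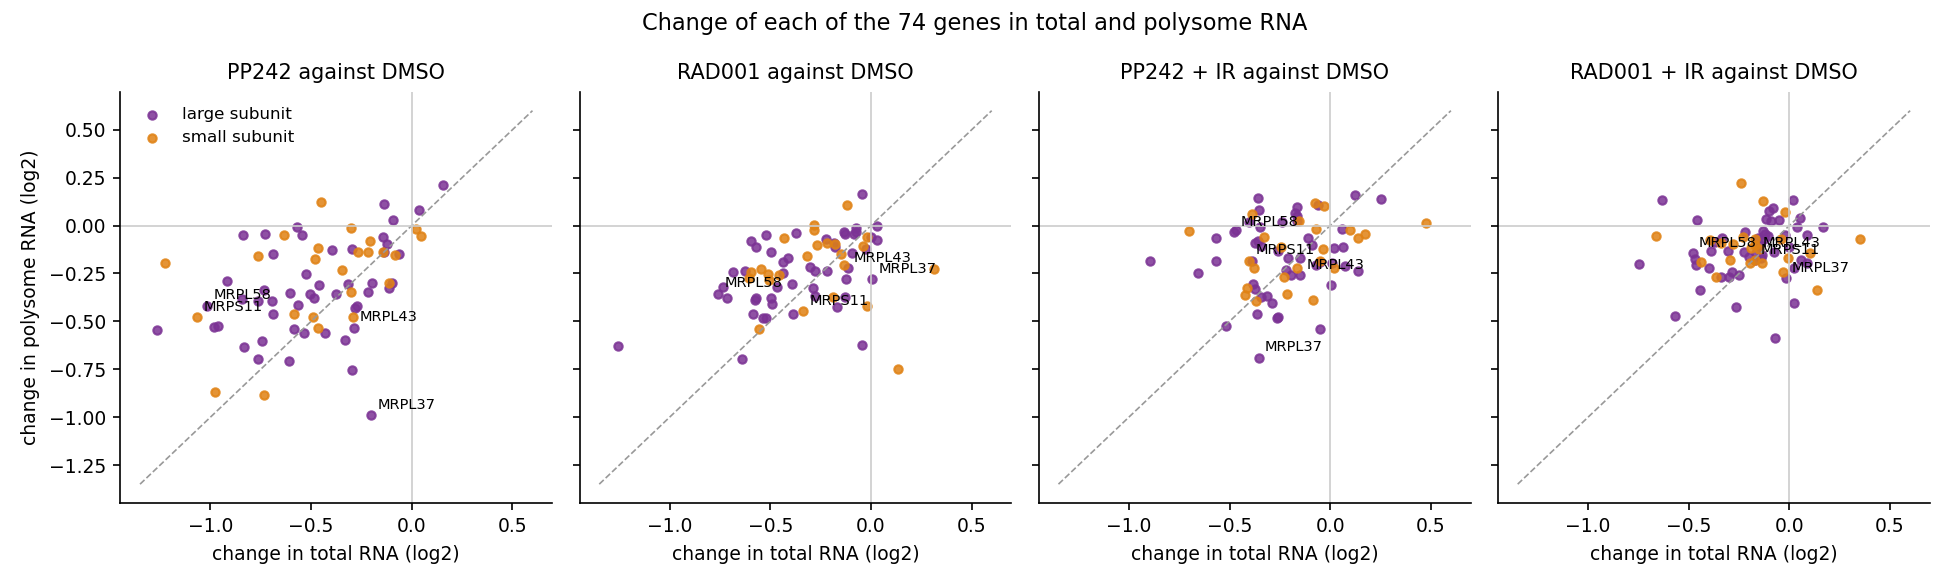
Log2 change against DMSO in total RNA (horizontal) and polysome RNA (vertical) of each of the 74 genes in 4 treatments, large subunit genes in purple and small subunit genes in orange; the dashed line marks equal change. Below 0 on both axes lie 67 genes with PP242, 66 with RAD001, 47 with PP242 + IR and 52 with RAD001 + IR; all comparisons share the DMSO arrays.

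PP242 against RAD001 compares a blocker of both mTOR complexes with one that acts mainly on the first; their doses and times are not in the labels. No member was called different in polysome RNA (0.0269% of all genes called), total RNA (0.00448%) or translational efficiency (0%), by limma. The median difference, PP242 minus RAD001, was -0.05 in polysome RNA (47 of 74 below 0) and -0.14 in total RNA (57 below 0). At an unadjusted p under 0.05, 3 members were lower and 1 higher in polysome RNA (1.81% and 1.24% of all genes), and 4 lower in total RNA (2.14%). Every PP242 array lay below every RAD001 array for 6 members in polysome RNA (5.62% of all genes) and above for 4 (4.72%), and below for 6 in total RNA (1.63%). The lowest p in polysome RNA was that of MRPL37 (-0.71 ± 0.19, adjusted p = 0.62), whose PP242 arrays (11.47 to 11.94) lay below its RAD001 arrays (12.38 to 12.58). In total RNA it was MRPS11 (-0.73 ± 0.17, limma adjusted p = 0.437), at 7.49 to 8.14 with PP242 and 8.30 to 8.91 with RAD001. With array weights MRPL37 (adjusted p = 0.0123) and MRPL43 (0.0431) were lower with PP242 in polysome RNA, when 1.07% of all genes were called. The family's median in total RNA became 0.02 without PP242 replicate 2 and -0.30 without PP242 replicate 1.

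Translational efficiency is how far a gene's polysome RNA changed beyond its total RNA. It was called different from DMSO for no member in any treatment (limma interaction term, 0% of all genes called in each). With 2 or 3 arrays per group, the lack of a call does not show that there was no change. With PP242 the median was 0.12, with 52 of 74 members above 0; at an unadjusted p under 0.05, 5 were higher (0.721% of all genes) and 1 lower (0.801%). With RAD001 the median was 0.09 (50 above 0, 1 higher at an unadjusted p under 0.05 against 1.05% of all genes). With PP242 + IR it was 0.04 (38 above 0, 0 members at an unadjusted p under 0.05 against 1.06% higher and 1.16% lower of all genes). With RAD001 + IR it was 0.07 (47 above 0, 2 members higher against 1.62%), and with IR alone -0.13 (14 above 0, 0 members against 0.564% higher and 0.318% lower). These medians are smaller than the spread between replicates of the family's median level (pooled SD 0.15). The direction of the medians with an inhibitor rested on single arrays. That with IR alone stayed below 0 with single arrays left out (-0.21 to -0.0046). With IR the median was -0.0046 without DMSO total replicate 2, with 37 members above 0 and 37 below, and -0.03 after quantile normalization, with 41 below. It was -0.0067 with PP242 without PP242 total replicate 2 (39 below 0) and -0.0004 with RAD001 without RAD001 total replicate 2 (39 below 0). With RAD001 + IR it was -0.015 without DMSO total replicate 3 and -0.0038 without RAD001 + IR total replicate 2, and with PP242 + IR -0.12 without its total replicate 2. The cytosolic ribosomal protein genes had medians of -0.24 with PP242 (44 of 48 below 0), -0.16 with RAD001 and -0.46 with PP242 + IR, and 0 of them passed either (1, 0 and 4 were lower at an unadjusted p under 0.05). Over all genes 0.801% were lower at that threshold with PP242 and 1.16% with PP242 + IR (limma).

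Single members lay on both sides. MRPL37 had the lowest translational efficiency with PP242 (-0.79 ± 0.27, limma adjusted p = 1). MRPS7, a small subunit protein with a bacterial counterpart, had the highest (1.03 ± 0.39, adjusted p = 1); its PP242 arrays were at 10.54, 10.82 and 10.85 in polysome RNA and at 10.22, 9.57 and 9.74 in total RNA. MRPS11 was at 0.59 ± 0.23 with PP242 (limma adjusted p = 1). With RAD001 the members with the lowest p were MRPS22 (0.26), MRPL54 (-0.58) and MRPS21 (-0.88), and with RAD001 + IR MRPL24 (0.76 ± 0.33), MRPL36 (0.49) and MRPL46 (-0.52), each with an adjusted p of 1.

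Within each treatment, polysome RNA was compared with total RNA directly, and here many members differed. Since each RNA was put on an array of its own, this difference is relative to the other genes on the arrays. In DMSO 10 of the 74 members were higher in polysome RNA and 0 lower (median difference 0.28), while 2.77% of all genes were called higher and 1.41% lower (limma; 3 members were lower at an unadjusted p under 0.05, against 9.01% of all genes). In IR 7 were higher and 1 lower (0.22; 2.25% and 2.11% of all genes). In PP242 26 were higher and 1 lower (0.39; 5.8% and 3.01%), and in RAD001 22 and 1 (0.35; 7.44% and 3.88%). In PP242 + IR 10 were higher and 0 lower (0.32; 2.46% and 2.16% of all genes; 2 lower at an unadjusted p under 0.05, against 7.83%). In RAD001 + IR 14 were higher and 0 lower (0.32; 4.54% and 3.59%; 2 lower at an unadjusted p under 0.05, against 8.78%). No difference from DMSO in this measure was called for any treatment (translational efficiency, above). The higher counts with PP242 and RAD001 than in DMSO and IR hung on the fit of all arrays. With only the arrays compared in the fit, 0 members were called in PP242 and 2 in RAD001 (limma). In PP242 + IR 0 were called, and in RAD001 + IR 6. The counts in DMSO and IR moved less, so the order of the treatments was not kept. What lowered the counts was not tested.

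Genes of higher level lay further up as a whole, so the family was also set beside the genes with a mean level of at least 5, with p adjusted over those. Of the 73 members among them, 13 were called higher in DMSO (6.67% of these genes), 10 in IR (5.9%), 28 in PP242 (12.7%), 24 in RAD001 (16.5%), 13 in PP242 + IR (6.37%) and 17 in RAD001 + IR (10.6%). The medians of these genes were 0.15, 0.10, 0.15, 0.15, 0.06 and 0.09 in the same order, against 0.22 to 0.39 for the family. Across the treatments 43 of the 74 members (58.1%) were above 0 in all 6, as were 23.6% of all genes, and 8 members (10.8%) were below 0 in all 6, as were 25.7%. In at least 1 treatment 31 members (41.9%) were called higher, against 9.4% of all genes. These shares, and those of the array counts below, are over all genes at any level. Neither they nor the genes with a mean level of at least 5 are matched to the family's level (median 8.69, against 5.16 for all genes). Leaving out replicate 2 of the total RNA moved the number called higher or lower to 1 in DMSO and to 9 in RAD001, and in PP242 to 14. Without the 8 arrays it was 16 in PP242, 15 in RAD001, 0 in PP242 + IR and 3 in RAD001 + IR. The shares of all genes called in these refits may have moved as well and are not given.

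Counting arrays alone, all 3 polysome arrays lay above all total arrays for 37 members in DMSO (15.6% of all genes), 28 in IR (15.3%), 32 in PP242 (10.7%), 34 in RAD001 (12.8%), 33 in PP242 + IR (13.8%) and 31 in RAD001 + IR (13.2%). They lay below for 4 (18.7%), 9 (18.1%), 2 (11.5%), 3 (11.1%), 1 (17.2%) and 4 (10.6%) members in the same order. For 5 members every one of the 18 polysome arrays lay above every one of the 17 total arrays, against 1.4% of all genes, and for 0 members below, against 0.801%. They were MRPL4 (9.85 to 10.75 against 8.11 to 9.25), MRPL2 (8.34 to 8.84 against 7.37 to 7.96), MRPL22 (8.57 to 9.03 against 7.57 to 8.48), MRPS18A (8.80 to 9.36 against 7.15 to 8.71) and MRPS2 (6.84 to 7.33 against 6.0 to 6.75). By the test, MRPL4, MRPL58, MRPL2, MRPL22 and MRPS2 were called higher in all 6 treatments, as were 191 of all 22336 genes. Some of these calls hung on single arrays. The IR calls of MRPL58 and MRPL22 were lost whichever of the 6 arrays was left out. In DMSO the MRPL58 call was lost in 5 of the 6 cases and the MRPL22 call in 4. The IR call of MRPS2 was lost in 4 of 6. MRPL2 and MRPL22 are large subunit proteins with bacterial counterparts, at the catalytic centre and the exit tunnel, and MRPS2 is one of the small subunit.

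**Figure D4:**
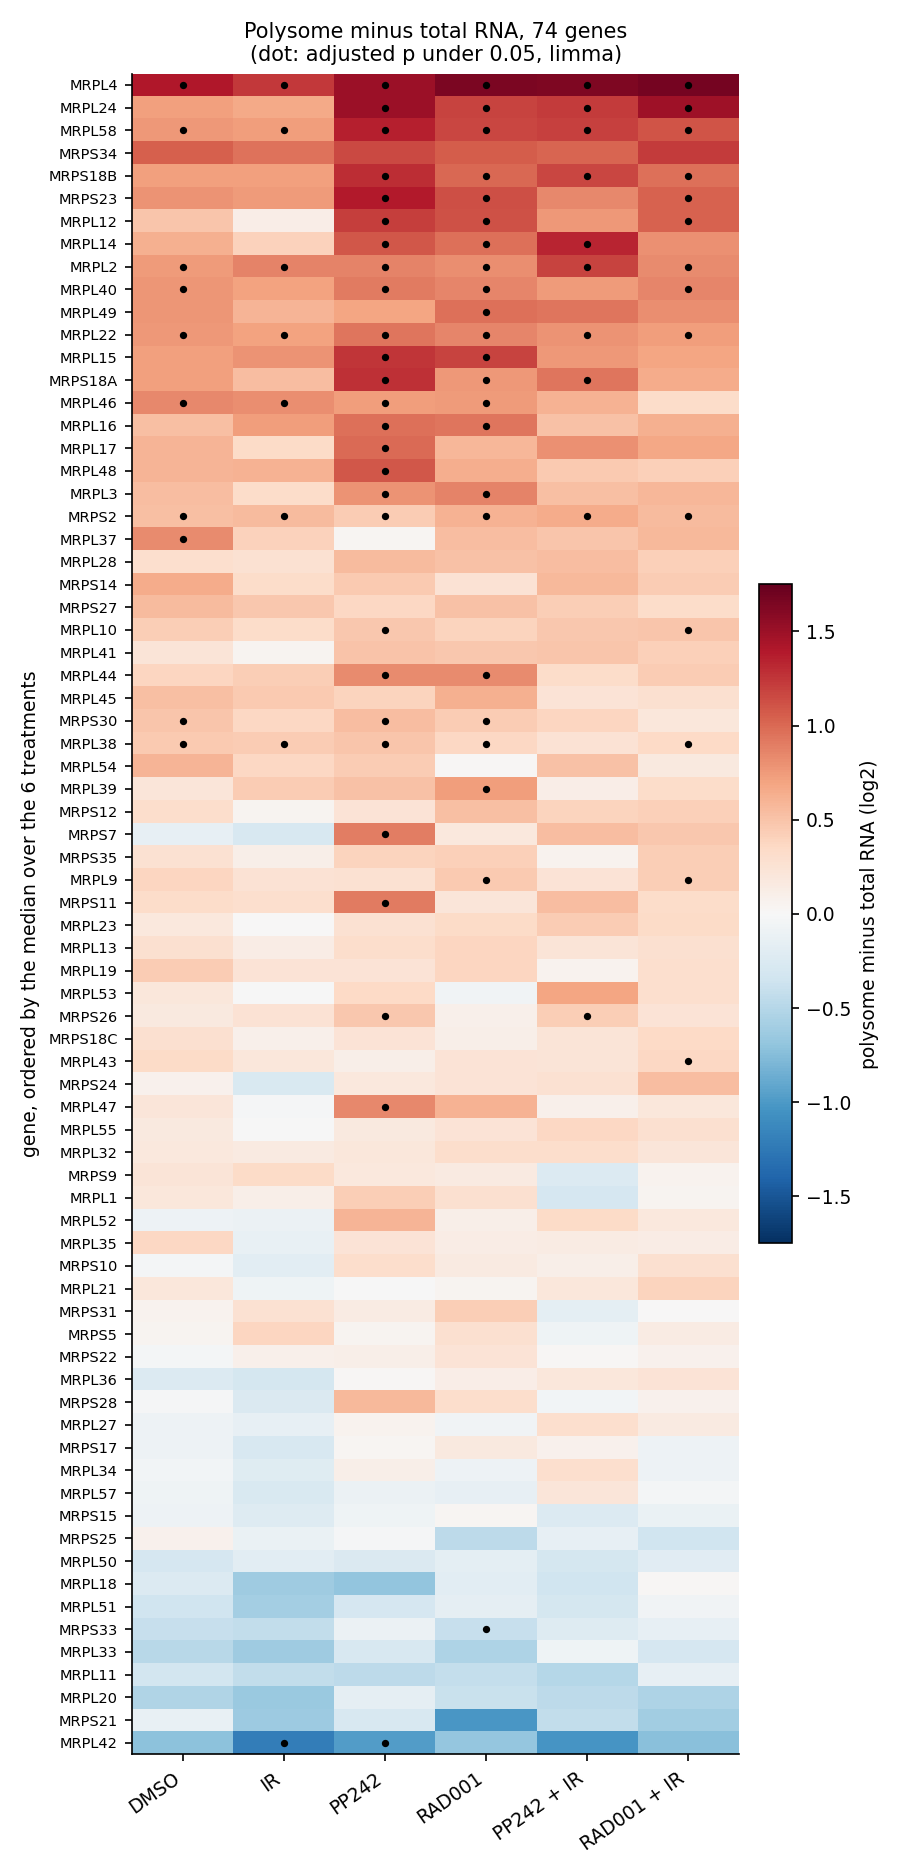
Polysome minus total RNA (log2, colour) of the 74 genes (lines, ordered by their median) in the 6 treatments (columns); dots mark an adjusted p under 0.05 (limma). MRPL4 at the top lies at 1.24 to 1.68 in every treatment and MRPL42 at the bottom at -0.68 to -1.22, and 43 genes are above 0 throughout.

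MRPL4, a large subunit protein with a bacterial counterpart, had the largest median difference. In DMSO it was at 10.41, 10.53 and 10.35 in polysome RNA and at 9.21, 8.65 and 9.24 in total RNA, a difference of 1.40 ± 0.21 (limma adjusted p = 0.000551). In RAD001 it was at 10.23, 10.16 and 10.40 against 8.46, 8.40 and 9.0, a difference of 1.64 (adjusted p = 2.98e-05). In the other treatments its difference was 1.24 in IR (0.00142), 1.50 in PP242 (0.000189), 1.63 ± 0.24 in PP242 + IR (0.000304) and 1.68 in RAD001 + IR (limma adjusted p = 2.62e-05). No single array left out ended any of these 6 calls. Without the 8 arrays the PP242 + IR call of MRPL4 was lost. With only the arrays compared in the fit, its calls in PP242 (limma adjusted p = 0.13) and PP242 + IR (0.125) were lost.

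MRPL58 was higher in polysome RNA by 0.76 ± 0.21 in DMSO (limma adjusted p = 0.0366), 0.73 in IR (0.0438), 1.36 in PP242 (0.000327), 1.17 in RAD001 (0.000696), 1.20 in PP242 + IR (0.00387) and 1.10 in RAD001 + IR (0.00142). In PP242 its polysome arrays (12.08 to 12.56) lay above its total arrays (10.39 to 11.52), and in DMSO likewise (12.65 to 12.80 against 11.81 to 12.11). The DMSO and IR calls of MRPL58 hung on single arrays, as given above. With only the arrays compared its calls in PP242 (limma adjusted p = 0.156), RAD001 (0.0561) and PP242 + IR (0.106) were lost. MRPL24, a large subunit protein with a bacterial counterpart, was at 8.81, 8.57 and 8.88 in PP242 polysome RNA and at 7.46, 7.0 and 7.29 in total RNA (1.50 ± 0.24, limma adjusted p = 0.000426). Its differences in RAD001 (1.18, 0.00184), PP242 + IR (1.22, 0.00865) and RAD001 + IR (1.48, 0.000317) passed too, while DMSO (0.71) and IR (0.66) did not. In DMSO MRPL24 was at 8.57, 8.98 and 8.85 against 7.87, 7.80 and 8.60, which overlapped. With only the arrays compared the MRPL24 calls in PP242 (limma adjusted p = 0.0958), RAD001 (0.0783) and PP242 + IR (0.125) were lost. MRPL12 was higher in RAD001 (1.11 ± 0.31, adjusted p = 0.0208), at 11.16, 10.83 and 11.36 in polysome RNA, and in RAD001 + IR (1.03, 0.0397). MRPL15 in RAD001 (1.18 ± 0.26, adjusted p = 0.00357) and MRPL14 in PP242 + IR (1.33 ± 0.34, 0.0218), both with bacterial counterparts, were higher as well. MRPL14 is the protein on which the assembly factor MALSU1 docks.

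In DMSO the members with the largest called differences after MRPL4 were MRPL46 (0.83 ± 0.22, limma adjusted p = 0.0312), MRPL37 (0.82 ± 0.19, 0.015), MRPL40 (0.77 ± 0.22, 0.0411), MRPL58 (0.76 ± 0.21, 0.0366) and MRPL22 (0.76 ± 0.20, 0.0295), all of the large subunit. MRPL46 was at 9.62, 9.51 and 9.42 in polysome RNA and at 8.74, 8.77 and 8.54 in total RNA, and MRPL37 at 12.61 to 12.85 against 11.78 to 12.07. In PP242 the MRPL37 groups met, at 11.47 to 11.94 in polysome and 11.68 to 11.81 in total RNA, and its difference over the 6 treatments ran from 0.03 to 0.82. In IR the named calls were MRPL4, MRPL2 (0.86 ± 0.16, adjusted p = 0.00267), MRPL46 (0.82, 0.0338), MRPL58, MRPL22 (0.71, 0.0402) and MRPS2 (0.56 ± 0.14, 0.0211). The DMSO calls of MRPL46 and MRPL40 were lost whichever of the 6 arrays was left out. Of the 43 calls named under the rule on genes, 23 were lost when some single array was left out. With only the arrays compared in the fit 26 were lost.

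Among small subunit genes, MRPS23, which has no bacterial counterpart, was at 8.59, 8.64 and 8.65 in PP242 polysome RNA and at 7.76, 6.56 and 7.40 in total RNA (1.39 ± 0.24, limma adjusted p = 0.00101). It was higher also in RAD001 (1.13, 0.00283) and RAD001 + IR (1.03, 0.00716). The 3 human relatives of the bacterial protein S18 did not give the same picture. MRPS18A, which sits in the large subunit, was at 9.05, 9.11 and 9.12 against 8.19, 7.15 and 8.10 in PP242 (1.28 ± 0.24, limma adjusted p = 0.00164). MRPS18B was at 12.26, 12.45 and 12.36 against 11.35, 10.80 and 11.05 (1.29 ± 0.22, adjusted p = 0.000917). MRPS18C was at 6.33, 6.27 and 6.51 against 6.20, 6.12 and 6.06, apart but closer, and was called in no treatment (0.08 to 0.35); the 3 were not tested against each other. MRPS34 differed by 0.95 to 1.22 in all 6 treatments and was called in none: in RAD001 it was at 12.91, 12.89 and 13.06 in polysome RNA and at 12.88, 10.67 and 12.13 in total RNA.

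In 2 members polysome RNA was called lower. MRPL42 was at 10.54, 11.09 and 10.87 in IR polysome RNA and at 12.30, 12.04 and 11.80 in total RNA (-1.22 ± 0.27, limma adjusted p = 0.0104). In PP242 it was at 10.95, 10.16 and 10.79 against 11.88, 11.06 and 11.89 (-0.98 ± 0.27, adjusted p = 0.0258), with the groups apart in both treatments. In DMSO the MRPL42 arrays were at 11.42, 11.54 and 10.72 against 11.85, 12.05 and 11.93, also apart, and the difference of -0.72 did not pass (limma adjusted p = 0.149). The IR call of MRPL42 was lost without IR polysome replicate 1 (adjusted p = 0.0748) or IR total replicate 1 (0.0573), and the PP242 call without PP242 polysome replicate 2 (0.162) or PP242 total replicate 1 (0.0604) or 3 (0.0752). MRPS33, a small protein of the small subunit, was at 6.24, 6.15 and 6.20 in RAD001 polysome RNA and at 6.55, 6.59 and 6.65 in total RNA (-0.40 ± 0.13, limma adjusted p = 0.0436). The MRPS33 call was lost whichever of the 6 arrays was left out (adjusted p from 0.0574 to 0.135). MRPS21 lay at -0.13 to -1.01 across the treatments and was not called.

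The subunits differed in the median of polysome minus total: 0.37 for the large and 0.12 for the small subunit in DMSO, 0.24 and 0.10 in IR, 0.46 and 0.28 in PP242, 0.42 and 0.24 in RAD001, 0.35 and 0.16 in PP242 + IR, and 0.33 and 0.30 in RAD001 + IR; this was not tested. The cytosolic ribosomal protein genes lay on the other side of 0, with medians of -0.14 in DMSO (0 higher, 3 lower), -0.28 in IR (0 and 5), -0.47 in PP242 (0 and 14), -0.36 in RAD001 (1 and 14), -0.68 in PP242 + IR (0 and 14) and -0.38 in RAD001 + IR (0 and 10). Over all genes 1.41%, 2.11%, 3.01%, 3.88%, 2.16% and 3.59% were called lower in the same order. The shares called higher were 2.77%, 2.25%, 5.8%, 7.44%, 2.46% and 4.54%.

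Other genes of mitochondrial translation were taken from lists of factors, assembly proteins and the transcription machinery. Of 27 measured assembly and rRNA modification genes, 1 fell with PP242 in polysome RNA, against 0.215% of all genes. It was MALSU1, which keeps the large subunit from joining too early (-0.78 ± 0.12, limma adjusted p = 0.00311). Of 12 translation factor genes, 1 fell with PP242 in total RNA, against 0.107% of all genes. It was TACO1, the activator of cytochrome oxidase subunit translation (-1.45 ± 0.19, limma adjusted p = 0.00126). In polysome minus total RNA 1, 1, 7, 10, 4 and 3 of the 27 assembly genes were higher in DMSO, IR, PP242, RAD001, PP242 + IR and RAD001 + IR. In the last 1 was lower (MTERF4, -0.27), where 3.59% of all genes were called lower. Over all genes 2.77%, 2.25%, 5.8%, 7.44%, 2.46% and 4.54% were called higher in that order, which is also the background of the counts that follow. ERAL1, a chaperone of the small subunit rRNA, was higher in all 6, by 0.68 in IR (limma adjusted p = 0.011) to 1.05 in RAD001 + IR (0.00014). Of the 12 factors 1, 2, 2, 2, 1 and 1 were higher in the same order, TACO1 in all 6 and the elongation factor TSFM in IR, PP242 and RAD001. Of 13 transcription and nucleoid genes, POLRMT, the mitochondrial RNA polymerase (0.75, adjusted p = 0.00609), and POLG, the DNA polymerase (1.08, 0.0137), were higher in PP242, and both with TFB2M (0.98) and ESRRA (0.94) in RAD001. Of 4 mitoribosomal proteins under other symbols, GADD45GIP1 was higher in PP242 (1.81), RAD001 (1.39), PP242 + IR (1.54) and RAD001 + IR (1.42).

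The promoters, from 250 bases before to 50 after the annotated start, were searched on both strands for short motifs. The ETS core CCGGAAG stood in 27 of the 66 promoters (40.9%), in 32.6% of those of cytosolic ribosomal protein genes and in 14.2% of all protein-coding ones. The YY1 core ATGGCGG stood in 24 (36.4%), against 11.6% and 7.6%; it holds the letters of a start codon, and whether a match lay at the start of a coding region was not checked. The NRF1 core GCGCATG stood in 7 (10.6%), against 14.0% and 5.9%. CCAAT, the NF-Y motif, stood in 20 (30.3%), against 32.6% and 36.4%, and TATAAA, the TBP motif, in 2 (3.0%), against 4.7% and 9.6%. ETS and YY1 matches overlapped in 0 promoters. Median GC content was 60.7%, 58.0% and 62.7% in the 3 sets. A match describes the letters only and was not set against the changes above. The 80 bases before the start are shown for 4 members with an ETS core there. They are MRPL43 and MRPL58, which fell with PP242, MRPS23, with a large polysome minus total difference, and MRPS34, which holds 3 copies. MRPL37 and MRPS11, which also fell with PP242, and MRPL4 hold no ETS core in their promoters. Capitals mark the core on either strand.
MRPL43: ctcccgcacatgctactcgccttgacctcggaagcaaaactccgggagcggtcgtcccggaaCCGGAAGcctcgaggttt
MRPL58: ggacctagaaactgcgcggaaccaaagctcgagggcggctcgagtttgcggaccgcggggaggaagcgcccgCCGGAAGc
MRPS23: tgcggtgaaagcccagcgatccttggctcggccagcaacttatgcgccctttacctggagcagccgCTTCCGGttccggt
MRPS34: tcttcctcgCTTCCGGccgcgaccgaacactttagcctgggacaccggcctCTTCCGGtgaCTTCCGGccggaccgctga

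They lie at chr10:100987498-100987577 (MRPL43, minus strand), chr17:75012590-75012669 (MRPL58, plus strand), chr17:57850045-57850124 (MRPS23, minus strand) and chr16:1773135-1773214 (MRPS34, minus strand). In MRPL58 1 base lies between the core and the annotated start.

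**Figure D5:**
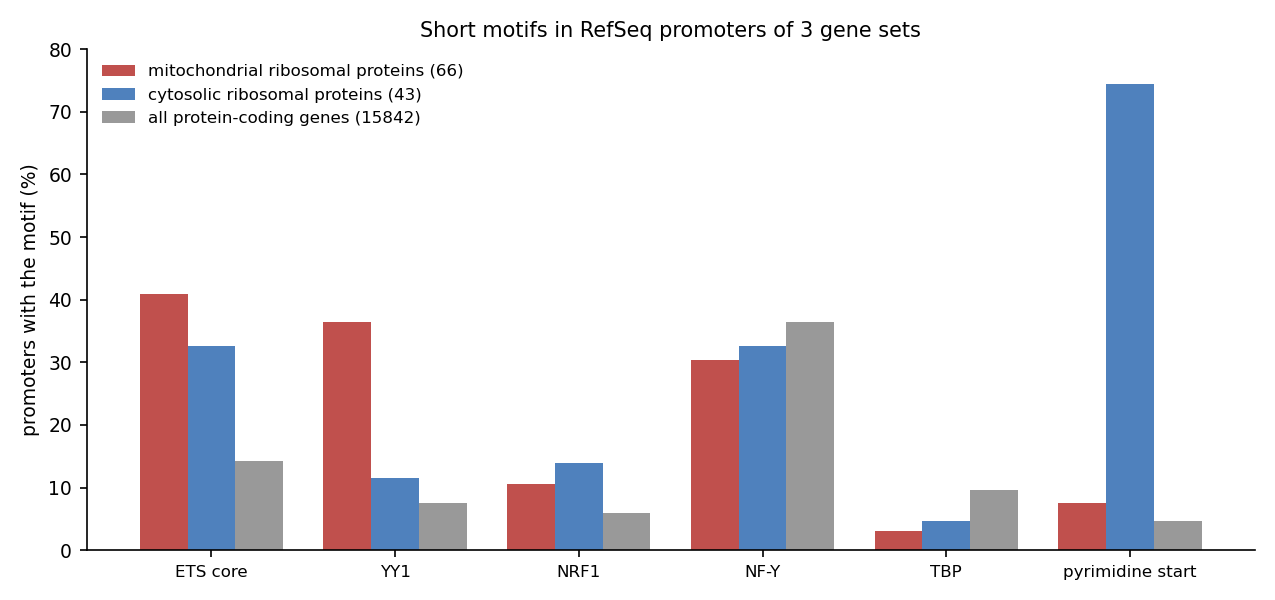
Percent of RefSeq promoters that hold each motif, for 66 mitochondrial and 43 cytosolic ribosomal protein genes and 15842 protein-coding genes. The ETS core (40.9%) and YY1 core (36.4%) are more frequent in the mitochondrial set than in all protein-coding promoters, and the pyrimidine start (74.4%) stands mainly in the cytosolic set.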

How the data were processed

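RNA from SUM149 cells was measured on 35 Affymetrix human transcriptome arrays. The deposited table holds values for 65029 probe sets on a log2 scale (1.85 to 19.9), inferred from the values; how the authors corrected the background and normalized, and the genome build, are not given in the sources read here. The labels' growth and extraction protocols describe mouse forelimbs rather than a human cell line and were set aside. The platform annotation gave 23077 probe sets 1 gene symbol, 1357 several and 40595 none; for each symbol the single-symbol probe set with the highest mean over all arrays was kept, which left 22336 genes.

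All 35 arrays entered 1 limma 3.58.1 fit (R 4.3.3; lmFit and eBayes) of 12 group means, with 23 residual degrees of freedom and 24 comparisons; adjusted p-values are Benjamini-Hochberg over all genes within a comparison, called under 0.05, and ± after a change is its standard error. Genes are named where called, at most the largest 6 in each direction, with the 3 lowest p where none passed, the extremes of level and spread, the MRPS18 genes, called genes of the other lists, and members chosen after their values were seen (MRPS34, MRPS18C, MRPS21, MRPL46 beside MRPS11, MRPS7). The members and lists were chosen with earlier results of these data known. The fit was run on simulated arrays with independent noise, without the shared deviations of the real arrays. That checks the code, not the calls. Alternatives were quantile normalization, a low-level filter (mean of at least 5), all probe sets, replicate blocks, array weights, only the arrays compared, leaving out arrays, and the threshold of the series' design text; the array number limits the precision. The replicate numbers deviated together (correlation over 0.1 in all 3 pairs) for IR against DMSO in polysome RNA, for polysome minus total in PP242, RAD001 and RAD001 + IR, and for PP242 against RAD001 in both fractions; elsewhere they were not taken to pair arrays. Tables were joined in Python 3.11.15 with pandas 2.3.3. Promoter sequences are RefSeq's (GRCh38.p14); the YY1 and NRF1 cores were set to 7 letters after longer forms had been counted.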

Additional observations from a re-analysis of the deposited data

How the results depend on the processing

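Every count here is of mitochondrial ribosomal protein genes called higher or lower. Where no share of all genes stands beside a count, that share may have moved with it. Under each alternative the family's medians against DMSO with PP242 and RAD001 stayed below 0 in both fractions, and polysome minus total medians above 0; medians of translational efficiency with PP242 and PP242 + IR changed sign under some (-0.00 with array weights and -0.07 without the 8 arrays). Apart from those below, counts of called members moved by less than 1.5 times and family medians by less than the spread between replicates (SD 0.15), which is wider than several of the medians, so signs could turn within it. Of the 43 named calls, 2 were lost after quantile normalization (MRPL46 in DMSO, adjusted p = 0.0546, and MRPS33 in RAD001, 0.152), 3 with all probe sets, 1 with array weights (MRPS33, 0.108), 17 without the 8 arrays and 7 without the 3 total arrays of highest median; with array weights 5 further named members passed. Calls lost without the 8 arrays include MRPL58 in DMSO (0.0507) and IR (0.0582) and MRPL22 in IR (0.0581), whose own arrays were all kept and whose differences were the same. The other causes were not tested.

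After quantile normalization the counts in polysome minus total were 15 in IR, 36 in RAD001, 24 in PP242 + IR and 29 in RAD001 + IR, and the translational efficiency median of RAD001 + IR was 0.24. With the low-level filter 13 were called in IR, when 10.4% of the genes kept were called. With all probe sets tested, 1 fell with PP242 in polysome and 1 in total RNA. With array weights the counts were 13 with PP242 in polysome and 6 in total RNA, 8 with RAD001 + IR in total RNA, 2 for PP242 against RAD001 in polysome RNA, and 41, 23 and 27 in polysome minus total of DMSO, IR and RAD001 + IR. The shares of all genes called in that fit were 4.82%, 0.815%, 4.47%, 1.07%, 29.8%, 13.7% and 12.6% in the same order. With the replicate block the counts were 4 with PP242 in total RNA and 21, 16 and 16 in polysome minus total of DMSO, IR and PP242 + IR, and with the block by treatment 20 in DMSO and 16 in IR. The block moved no count over 1.5 times where the numbers paired the arrays. Both blocks go by number and set PP242 + IR total replicate 2 beside the other replicates 2. Its DNA replication genes were low as in the replicates 3 (8.19), so the PP242 + IR counts with a block are no check. Without the 8 arrays the counts were 0 with PP242 in total RNA and 16, 15, 0 and 3 in polysome minus total of PP242, RAD001, PP242 + IR and RAD001 + IR. With only the arrays compared, the fit has fewer degrees of freedom and takes its spread from those arrays. In it 26 of the named calls were lost. The counts were then 0 with PP242 in polysome and 0 in total RNA, and 0, 2, 0 and 6 in the same order. In DMSO and IR, also with 3 arrays per group, the counts moved by no more than 1.5 times. What lowered the counts was not tested. At the design text's threshold (p under 0.05 and a log2 change over 1.5) they were 0 and 0 with PP242 and 0, 0, 2, 1, 1 and 1 in polysome minus total of DMSO, IR, PP242, RAD001, PP242 + IR and RAD001 + IR. Leaving out the 3 total arrays of highest median, chosen after seeing the data, gave 0 with PP242 in total RNA and 4, 15 and 15 in polysome minus total of DMSO, PP242 and RAD001, with a family median of -0.37 for PP242 in total RNA.

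With single arrays left out, counts in polysome minus total ran from 1 to 9 in DMSO, 4 to 6 in IR, 13 to 33 in PP242, 9 to 29 in RAD001, 2 to 11 in PP242 + IR (median 0.20 to 0.48) and 7 to 16 in RAD001 + IR. The lowest counts were without replicate 2 of the total RNA in DMSO, RAD001 and PP242 + IR, without PP242 polysome replicate 2, and without RAD001 + IR polysome replicate 1 or total replicate 2. Other arrays whose loss moved a count over 1.5 times were, in DMSO, polysome replicates 1 (3), 2 (2) and 3 (5) and total replicate 1 (6); in IR, polysome replicates 1 (4), 2 (4) and 3 (5) and total replicates 1 (4) and 3 (5); PP242 total replicate 2 (14); RAD001 polysome replicates 1 (12) and 2 (14); and RAD001 + IR polysome replicate 3 (8). With PP242 against DMSO the counts ran from 0 to 2 in polysome and from 0 (without DMSO replicate 3) to 16 (without PP242 replicate 1) in total RNA, where the median ran from -0.58 to -0.28. The PP242 + IR medians ran from -0.38 to -0.082 in total RNA and from -0.12 to 0.22 in translational efficiency, by which of its 2 total arrays was left out; that lone array is assumed to vary like the other groups. For PP242 against RAD001 the medians ran from -0.30 to 0.016 in total RNA and from -0.11 to 0.18 in translational efficiency.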
